A study of Mus musculus with 12 samples.

Results

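The genes described here carry cells through DNA replication and mitosis, and they were read in whole stomach and whole colon of mice with and without Spdef. The list holds 45 genes, 17 of DNA replication and 28 of mitosis, grouped by their known roles. Each gene was read by 1 probe set, the one with the highest mean over the 12 arrays. A probe set was named for 43 of the 45 genes, all 17 replication genes and 26 mitotic genes, out of 11807 genes on the array. Ccnb1 and Cdca8 had no probe set named for them. Tests were limited to genes whose level reached 6.53 on the log2 scale on at least 2 of the 6 arrays of a tissue, which left 39 members in colon (14 replication, 25 mitotic) and 39 in stomach (15 and 24).

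The arrays came from 16 week old C57BL/6 mice, with no treatment, of the Spdef genotypes wild type (WT), heterozygous (HET) and knockout (KO). Spdef encodes a transcription factor of the ETS family that acts in goblet and other mucus-secreting cells. There were 6 groups of 2 arrays, 1 for each genotype in each tissue: stomach WT, HET and KO, and colon WT, HET and KO. How the knockout allele was made, and in which cells it acts, is not given in the sources used here. Sex is not labelled, nor is it stated that each array stands for another animal, so p-values cover the spread between samples that may be technical repeats. All levels are log2(intensity + 16) after quantile normalization, and all differences are on that log2 scale.

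Some arrays stood apart from the rest of their group. Colon WT 2 had a mean correlation of 0.927 with the other colon arrays, against 0.954 to 0.968 for those, and a mean level of 10 small intestine genes of 12.36 against 6.05 to 7.20. Colon KO 2 had Xist, the RNA of the inactive X chromosome, at 5.70 against 12.34 to 12.86 on the other colon arrays, and stomach KO 2 had it at 7.48. The Y-linked genes Eif2s3y, Kdm5d and Uty read 4.58, 5.37 and 5.28 on colon KO 2, below 6.53 as on all 12 arrays. Spdef itself read 10.97 and 8.74 in colon WT, 10.27 and 9.81 in colon HET and 9.08 and 9.25 in colon KO, so colon WT 2 read below both KO arrays. In stomach it read 9.19 and 8.96 in WT, 9.06 and 8.94 in HET and 8.86 and 8.63 in KO, with both KO arrays lowest by a small margin. The stomach arrays were clearly apart from the colon arrays: 9 genes of gastric glands and surface cells averaged 13.93 to 14.08 in stomach and 5.15 to 5.42 in colon. Within colon, 8 genes of absorptive colon cells averaged 10.90 on WT 2 against 12.91 to 13.51 on the other arrays. Colon WT 2 thus matched its tissue label less well, and the reason was not tested.

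Successive waves of transcription carry a dividing cell. Before S phase, E2F factors switch on the genes that load the MCM helicase on DNA, supply nucleotides and start replication. Before mitosis, the MuvB complex with B-MYB and FOXM1 switches on the cyclins, kinases and motors of the spindle, and it binds a promoter element called CHR, often beside CCAAT boxes. In the gut epithelium dividing cells are found in the crypts of the colon and in the isthmus of the stomach glands.

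Promoters show this division of the members and are given for that reason. RefSeq promoters of GRCm38.p6, which run from 250 bases before to 50 bases after the first listed start, were matched by symbol for 35 of the 43 members. Kif20a, Mcm4, Aurkb, Tpx2, Ccna2, Foxm1, Ccne2 and Gmnn were not matched. The 130 bases before the start are printed for 3 mitotic genes and 2 replication genes whose array values are described below, with every match in capitals. Both strands were searched for the E2F word TTCCCGC with its variants, which were TTGGCGC, then the form TTCGCGC and last the form TTGCCGC. They were also searched for the CHR word TTTGAA with its variant form TTTAAA, and for CCAAT boxes. A word can overlap the reverse complement of another, as in both E2F stretches of Mcm6.

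Kif11: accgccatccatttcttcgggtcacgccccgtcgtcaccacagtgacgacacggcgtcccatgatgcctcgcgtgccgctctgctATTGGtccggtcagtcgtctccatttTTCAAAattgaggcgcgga
Cenpa: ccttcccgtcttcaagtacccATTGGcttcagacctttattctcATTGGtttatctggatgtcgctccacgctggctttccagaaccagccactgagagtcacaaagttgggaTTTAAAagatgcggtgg
Cdk1: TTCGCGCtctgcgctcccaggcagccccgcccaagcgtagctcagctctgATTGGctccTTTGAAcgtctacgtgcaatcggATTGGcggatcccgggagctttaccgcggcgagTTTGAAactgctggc
Mcm6: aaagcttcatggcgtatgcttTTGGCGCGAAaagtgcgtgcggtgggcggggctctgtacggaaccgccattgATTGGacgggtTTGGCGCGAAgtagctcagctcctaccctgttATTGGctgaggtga
Rrm1: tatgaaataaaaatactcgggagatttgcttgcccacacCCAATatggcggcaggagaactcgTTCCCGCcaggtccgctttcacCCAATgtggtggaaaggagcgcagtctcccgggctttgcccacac

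On GRCm38.p6 these lie at chr19:37376252-37376381 on the plus strand (Kif11), chr5:30666756-30666885 on the plus strand (Cenpa), chr10:69352913-69353042 on the minus strand (Cdk1), chr1:128359706-128359835 on the minus strand (Mcm6) and chr7:102441565-102441694 on the plus strand (Rrm1). In the printed bases of Kif11 and Cenpa the CHR word begins 19 and 17 bases before the start, with CCAAT words at 45 bases and at 109 and 86 bases. Cdk1 has CHR words at 71 and 15 bases and also an E2F word at 130. Mcm6 has E2F words at 109, 106, 46 and 43 bases and no CHR word in its window. Rrm1 has an E2F word at 67 bases and no CHR word. Outside the printed bases, Cenpa has another CHR word at position 17 after its start. Cdk1 has another E2F word 178 bases before its start, and Mcm6 has one at position 25 after its start. Over the matched members, a CHR word was present in 18 of 21 mitotic promoters (85.7%) and 5 of 14 replication promoters (35.7%), against 27.8% of 27025 promoters of the same length. An E2F word was present in 4 of 21 mitotic promoters (19%) and 8 of 14 replication promoters (57.1%), against 9.69% of all. CCAAT was present in 17 of 21 mitotic (81%) and 8 of 14 replication promoters (57.1%), against 37.9% of all. A match is a description of the letters and does not show that a factor binds there.

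In colon, 22 of the 25 mitotic genes tested read higher on both KO arrays than on all 4 WT and HET arrays. Over all genes tested that share was 8.33%. Of the 14 replication genes, 7 read below those 4 arrays on colon KO 1 (12.2% of all genes) and 2 above them (21.7%). On colon KO 2, 12 read above them (26.2% of all genes). No member passed the threshold of 0.05 after Benjamini-Hochberg adjustment in limma for KO against WT. The median KO minus WT difference was 0.70 over the 25 mitotic genes, all of them above 0, and 0.13 over the 14 replication genes, 10 of them above 0. Over all 7913 genes tested in colon the median was 0.06, and 57.4% were above 0.

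**Figure D1:**
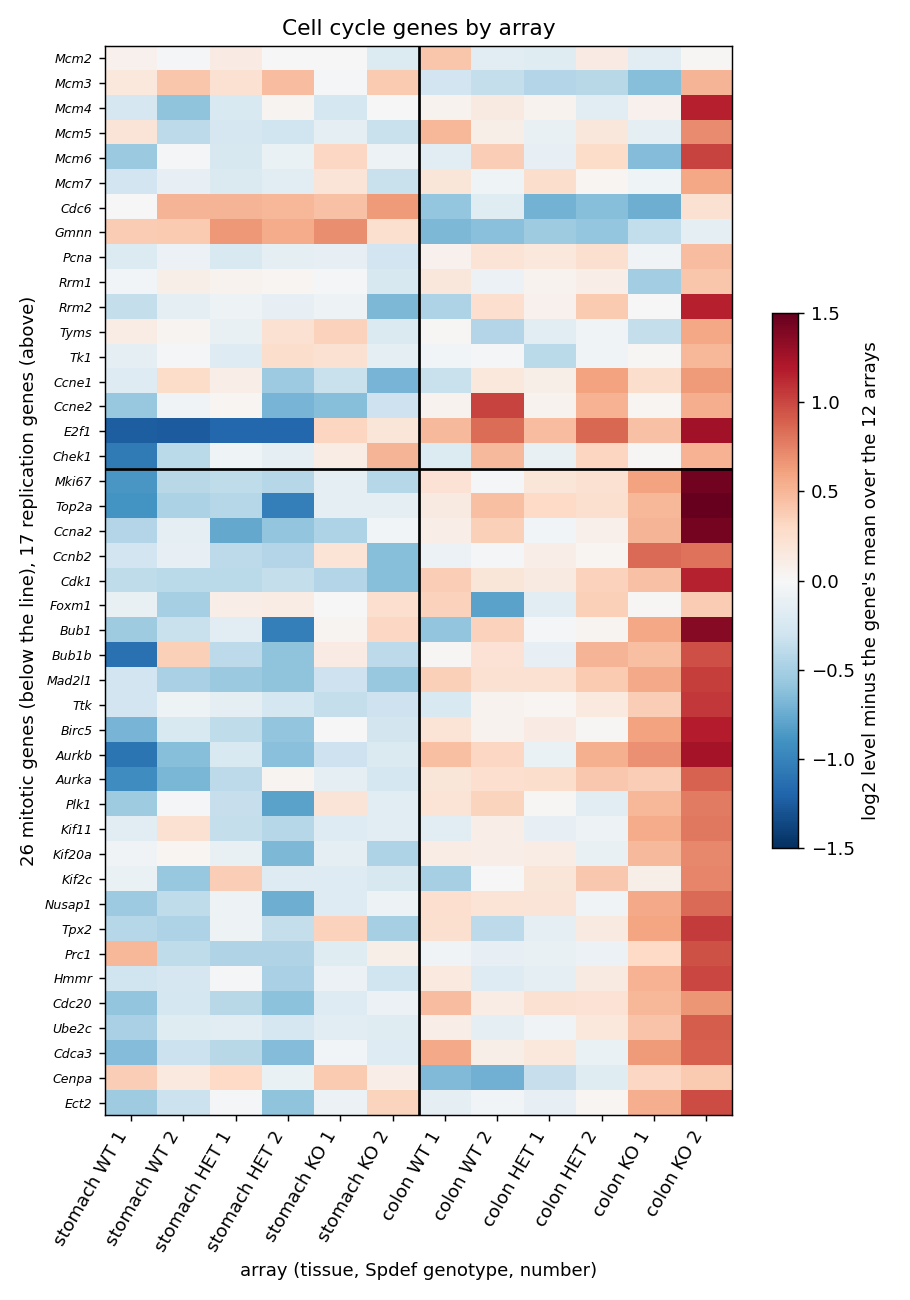
Level of each of the 43 members (rows, 17 replication genes above the line and 26 mitotic genes below it) on each of the 12 arrays (columns), as log2 level minus the gene's mean over the 12 arrays. Colon KO 2 is the array on which most rows are red, and on colon KO 1 the mitotic rows are red and most replication rows are not.

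The helicase subunits Mcm2 to Mcm7 form the ring that unwinds DNA. Mcm6 read 8.12 and 8.66 in colon WT, 8.17 and 8.57 in HET, and 7.64 and 9.31 on KO 1 and KO 2. KO 1 was thus the lowest and KO 2 the highest of the 6 colon arrays. The KO minus WT difference was 0.08 (SE 0.46, adjusted p = 0.957 in limma), with the KO arrays apart by 1.67, the largest gap between them among the tested members. Mcm5 read 8.29 and 7.88 in WT, 7.67 and 7.96 in HET, and 7.64 and 8.50 in KO, and Mcm7 read 9.00 and 8.75, 9.08 and 8.85, and 8.75 and 9.40. Both had KO 2 at the top and KO 1 at the bottom, in Mcm5 close to HET 1 and in Mcm7 level with WT 2 on rounding. Mcm4 read 8.28 and 8.36 in WT, 8.28 and 8.07 in HET, and 8.29 and 9.39 in KO, so only KO 2 stood apart. Mcm2 read 8.33 and 7.74, 7.73 and 8.04, and 7.74 and 7.93, with both KO arrays inside the range of the others. A second Mcm2 probe set gave 1.14 for KO 2 minus the mean of the 4 WT and HET arrays where the one used gave -0.03, so the probe sets of this gene disagree. Mcm3 was not tested in colon, where it read 5.96 to 6.31 on 5 arrays and 7.10 on KO 2.

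Gmnn, the inhibitor that stops origins from being licensed again after they fire, read 8.95 and 8.99 in WT, 9.09 and 9.04 in HET, and 9.25 and 9.47 in KO, so both KO arrays lay above the other 4. The difference from WT was 0.39 (SE 0.17, adjusted p = 0.443 in limma). Cdc6, which loads the helicase, read 6.13 and 6.54 in WT, 6.01 and 6.08 in HET, and 5.98 and 6.95 in KO, with KO 1 lowest and KO 2 highest. The clamp Pcna, which holds polymerases on DNA, read 11.83 and 11.97 in WT, 11.92 and 12.01 in HET, and 11.71 and 12.23 in KO, again with KO 1 lowest and KO 2 highest.

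Among the genes of nucleotide supply, Rrm1, the large subunit of ribonucleotide reductase, read 8.86 and 8.60 in WT, 8.74 and 8.79 in HET, and 8.17 and 9.10 in KO. KO 1 lay below the WT and HET arrays by more than their range. A second Rrm1 probe set gave -0.12 for KO 1 minus the WT and HET mean where the one used gave -0.57. Rrm2, the small subunit, read 7.17 and 7.88, 7.70 and 8.03, and 7.64 and 8.80, and the thymidylate synthase Tyms read 8.83 and 8.38, 8.65 and 8.76, and 8.46 and 9.40. In both genes KO 1 was inside the range of the WT and HET arrays and KO 2 was above it. Tk1, a thymidine kinase, read 8.05 and 8.07, 7.68 and 8.03, and 8.11 and 8.59, with both KO arrays at the top and KO 1 close to the WT arrays. Of the genes of S phase entry and checkpoint, Ccne2 (cyclin E2) read 7.28 and 8.24 in WT, 7.28 and 7.75 in HET, and 7.26 and 7.77 in KO, and the checkpoint kinase Chek1 read 6.64 and 7.33, 6.73 and 7.16, and 6.86 and 7.36. The KO arrays of both lay within or close to the range of the others. Ccne1 and E2f1 were not tested in colon, with levels of 5.58 to 6.56 and 5.81 to 6.63.

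Among the mitotic genes, Cenpa, the histone variant that marks centromeres, read 7.57 and 7.52 in WT, 7.89 and 8.05 in HET, and 8.55 and 8.63 in KO. The KO minus WT difference was 1.05 (SE 0.19, adjusted p = 0.251 in limma, the smallest of any member in this comparison). Ccnb2 (cyclin B2), an activator of Cdk1, read 8.35 and 8.40 in WT, 8.53 and 8.46 in HET, and 9.28 and 9.25 in KO, a difference of 0.89 (SE 0.24, adjusted p = 0.320 in limma). In both genes the KO arrays lay close together and above all other colon arrays. Cdk1, the kinase that drives entry into mitosis, read 9.52 and 9.34, 9.29 and 9.50, and 9.60 and 10.31, and Ccna2 (cyclin A2) read 8.61 and 8.86, 8.47 and 8.58, and 9.02 and 9.94. Here KO 1 lay just above the other arrays and KO 2 well above them. Foxm1, the factor that activates mitotic genes, read 7.25 and 6.10, 6.75 and 7.26, and 6.92 and 7.29, and KO 1 lay inside the range of the others.

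**Figure D2:**
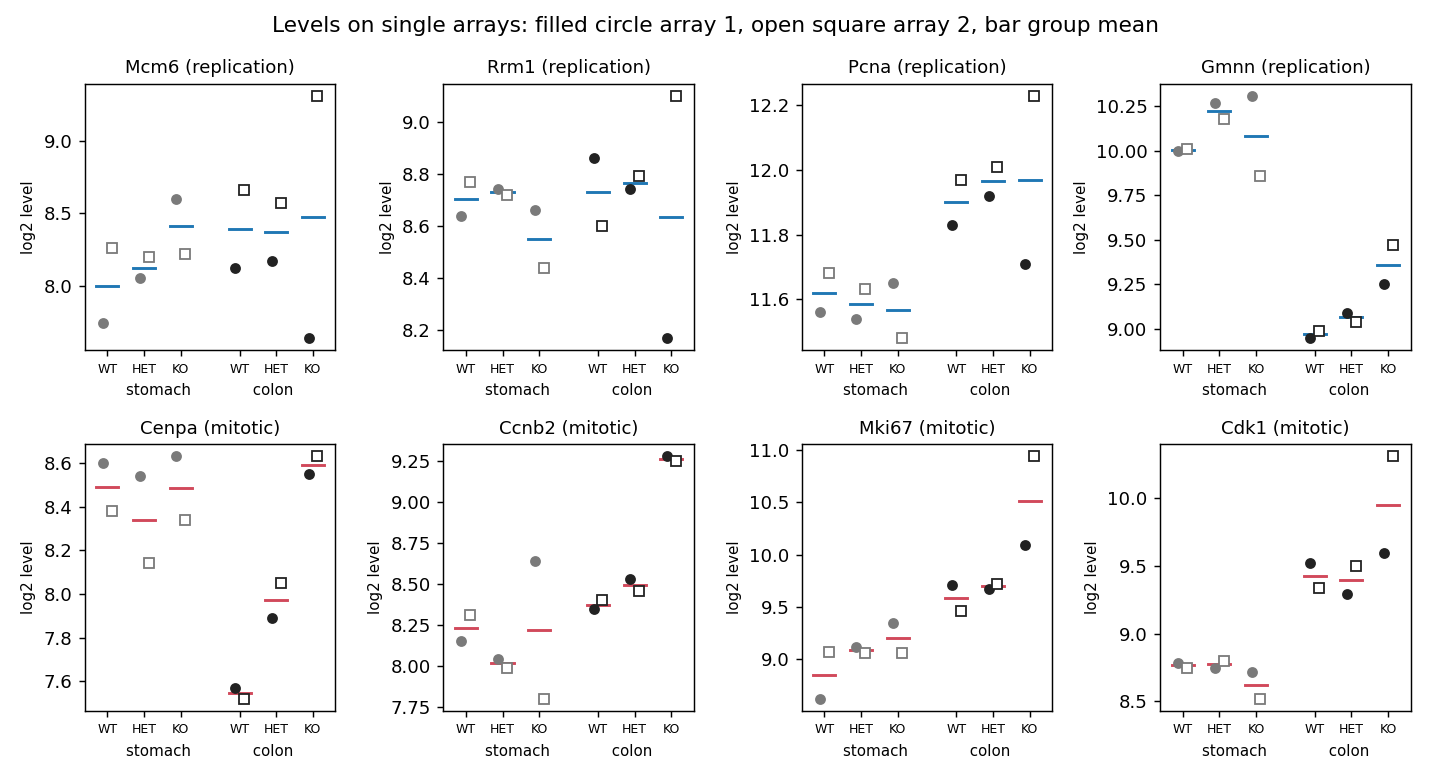
Log2 level of 4 replication genes (upper row) and 4 mitotic genes (lower row) on every array, by tissue and Spdef genotype; filled circles are array 1, open squares array 2 and bars the group mean. The colon KO arrays of Mcm6, Rrm1 and Pcna lie on either side of the other colon arrays, while those of Gmnn, Cenpa, Ccnb2, Mki67 and Cdk1 lie above them.

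The proliferation marker Mki67 read 9.71 and 9.46 in colon WT, 9.67 and 9.72 in HET, and 10.09 and 10.94 in KO, a KO minus WT difference of 0.93 (SE 0.27, adjusted p = 0.320 in limma). Top2a, which untangles chromosomes, read 8.77 and 9.09, 8.94 and 8.88, and 9.14 and 10.13. KO 1 was higher than the WT and HET mean by 0.45 in Mki67 and 0.22 in Top2a, and KO 2 by 1.30 and 1.21. Of the spindle checkpoint, which holds chromosome separation until every kinetochore is attached, Bub1 read 6.38 and 7.31 in WT, 6.95 and 7.01 in HET, and 7.55 and 8.33 in KO. Its difference of 1.09 (SE 0.40) had an adjusted p of 0.417 in limma. Mad2l1 read 9.62 and 9.49, 9.49 and 9.65, and 9.83 and 10.30, and Ttk, the checkpoint kinase, read 6.83 and 7.11, 7.09 and 7.21, and 7.43 and 8.12. All 3 genes had both KO arrays on top. Bub1b read 6.85 and 7.04, 6.70 and 7.34, and 7.28 and 7.79, with KO 1 under HET 2.

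Of the passenger complex, which corrects wrong attachments, Birc5 (survivin) read 8.90 and 8.75 in WT, 8.82 and 8.71 in HET, and 9.29 and 9.87 in KO, and its kinase Aurkb read 6.69 and 6.54, 6.13 and 6.77, and 6.92 and 7.48. Both KO arrays were highest in each. The centrosome kinase Aurka read 7.51 and 7.58, 7.60 and 7.74, and 7.70 and 8.22, with KO 1 inside the range. Plk1 read 7.23 and 7.35, 7.04 and 6.86, and 7.52 and 7.80, with both KO arrays on top. Of the spindle motors and spindle proteins, Kif11, which pushes the poles apart, read 6.81 and 7.09 in WT, 6.86 and 6.91 in HET, and 7.54 and 7.78 in KO. A second Kif11 probe set, above 6.53 on 8 of the 12 arrays, gave a KO minus WT difference of -0.02 where the one used gave 0.71. Prc1, which bundles the central spindle, read 7.56 and 7.49, 7.51 and 7.53, and 7.91 and 8.57. Hmmr, Tpx2, Nusap1 and Kif20a had KO minus WT differences of 0.78, 0.90, 0.48 and 0.49, with both KO arrays above the other 4 in each. Kif2c was not tested, with 5.48 to 6.71 over the colon arrays.

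Of the genes of mitotic exit, Ube2c, the ubiquitin-conjugating enzyme of the anaphase-promoting complex, read 9.53 and 9.29 in WT, 9.38 and 9.59 in HET, and 9.85 and 10.34 in KO. The activator of that complex, Cdc20, read 8.63 and 8.27, 8.39 and 8.38, and 8.66 and 8.82, and Cdca3, which triggers mitotic entry, read 8.98 and 8.50, 8.57 and 8.31, and 9.04 and 9.30. In Cdc20 and Cdca3 KO 1 exceeded WT 1 by less than 0.1. Ect2, which sets up the cleavage furrow, read 8.15 and 8.24, 8.16 and 8.32, and 8.83 and 9.26, a KO minus WT difference of 0.85 (SE 0.24, adjusted p = 0.320 in limma).

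Counted over the lists, 0 of 39 members passed the adjusted threshold for colon KO against WT, where 0.0505% of all genes did. At an unadjusted p under 0.05 in limma there were 16 of 39 members, all higher in KO, against 11.2% of all genes and 6.91% in the higher direction. They were 15 of 25 mitotic genes and 1 of 14 replication genes, Gmnn. Both KO arrays lay above both WT arrays for 24 of 25 mitotic genes and 2 of 14 replication genes, against 20.4% of all genes. Without colon KO 2 the median was 0.37 over the mitotic genes and -0.14 over the 13 replication genes then tested. Over all genes it was 0.07. Without colon KO 1 the medians were 0.88 and 0.51, against 0.06 over all genes.

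Against HET, a comparison that shares the KO arrays with the one above, 0 of 39 members passed (0.0253% of all genes), and 19 of 39 had an unadjusted p under 0.05, all mitotic and all higher in KO, against 4.15% of all genes and 2.17% in that direction. The median was 0.72 over the mitotic genes, 25 of 25 above 0, and 0.19 over the replication genes, 11 of 14 above 0, against 53.4% of all genes above 0. The genes with the smallest p were Kif11 at 0.77 (SE 0.22), Birc5 at 0.82 (SE 0.23) and Cdca3 at 0.73 (SE 0.22), each with an adjusted p of 0.999 in limma. The second Kif11 probe set gave -0.14 on KO 1 and 0.32 on KO 2 against the WT and HET mean. The one used gave 0.62 and 0.86. Without colon KO 2 the medians were 0.48 (mitotic) and -0.21 (replication), against 0.03 over all genes. They were 0.71 and 0.14 without colon HET 1, against 0.02, and 0.71 and 0.29 without colon HET 2, against 0.01.

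Between colon HET and WT the median differences of both lists were near 0. In that comparison, which shares the WT arrays with KO against WT, 0 of 39 members passed (0.0253% of all genes) and 0 of 39 had an unadjusted p under 0.05 in limma, against 9.63% of all genes. The median difference was 0.02 over the mitotic genes, with 13 of 25 above 0, and -0.03 over the replication genes, with 6 of 14 above 0, against 55.4% of all genes. The widest differences were 0.42 and -0.34.

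Taken singly against the mean of the 4 colon WT and HET arrays, the KO arrays shared the direction of the mitotic genes and not that of the replication genes. On KO 1 the median was 0.40 over the mitotic genes, with a range of 0.08 to 0.85 and 25 of 25 above 0. Over the replication genes it was -0.20, with a range of -0.74 to 0.23 and 3 of 14 above 0. On KO 2 the medians were 0.89 (0.40 to 1.41) and 0.51 (-0.03 to 1.14), with 25 of 25 and 13 of 14 above 0. The medians over all genes were 0.05 and 0.04.

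KO 1 lay above all 4 WT and HET arrays for 22 of 25 mitotic genes and 2 of 14 replication genes (Gmnn and Tk1), against 21.7% of all genes. The exceptions among the mitotic genes were Foxm1, Bub1b and Aurka. KO 1 lay below all 4 for 7 of 14 replication genes and 0 of 25 mitotic genes, against 12.2% of all genes. The 7 were Mcm5, Mcm6, Mcm7, Cdc6, Pcna, Rrm1 and Ccne2, and Mcm5, Mcm7, Cdc6 and Ccne2 were under the lowest of the 4 by less than 0.1. KO 2 lay above all 4 for 25 of 25 mitotic genes and 12 of 14 replication genes, all but Mcm2 and Ccne2, against 26.2% of all genes. Both KO arrays lay above all 4 for 22 mitotic and 2 replication genes, against 8.33% of all genes.

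KO 2 exceeded KO 1 for 38 of 39 members, with Ccnb2 the exception, against 49.2% of all genes. The gap had a median of 0.75 over the replication genes (0.18 to 1.67) and 0.48 over the mitotic genes (-0.03 to 0.99). With colon WT 2 left out of the reference, KO 1 lay above the other 3 arrays for 22 of 25 mitotic and 3 of 14 replication genes (31.4% of all genes), and KO 2 for 25 of 25 and 13 of 14 (32.7%).

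**Figure D3:**
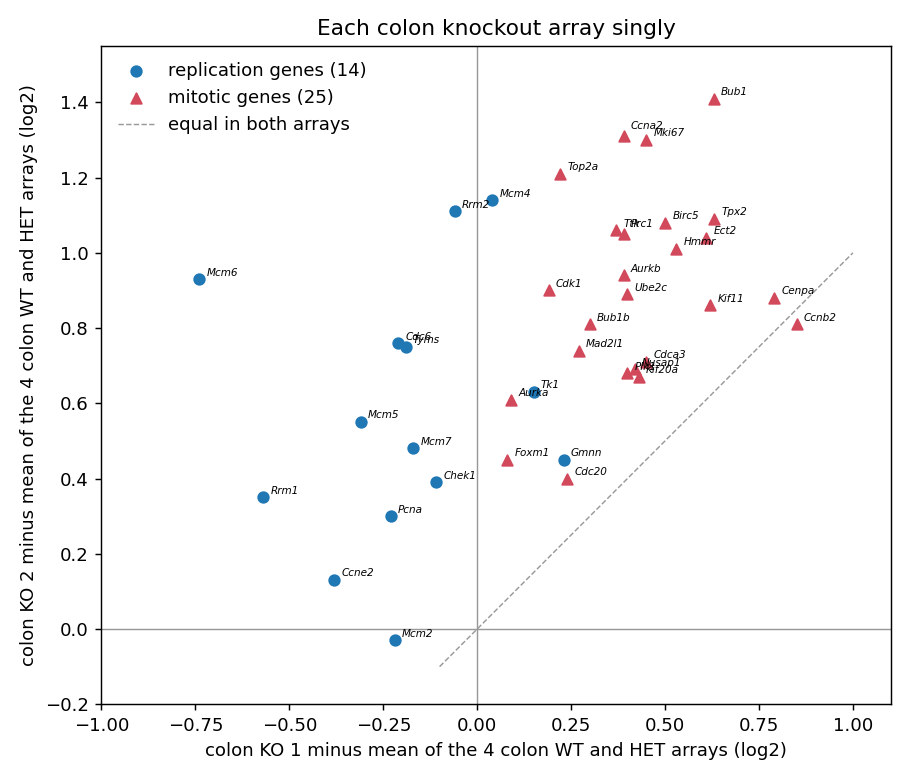
Difference of colon KO 1 (horizontal axis) and colon KO 2 (vertical axis) from the mean of the 4 colon WT and HET arrays, in log2, for the 39 members tested in colon; circles are replication genes, triangles mitotic genes, and the dashed line marks equal differences. The 25 triangles lie to the right of 0 and above 0, and 11 of the 14 circles lie to the left of 0.

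Set beside the promoters shown above, 5 tested members had an E2F word and no CHR word (Mcm6, Mcm7, Cdc6, Rrm1 and Chek1). Their median on KO 1 was -0.21, with 4 of them below all 4 WT and HET arrays, against 12.2% of all genes. The 15 with a CHR word and no E2F word, 13 of them mitotic, had a median of 0.39 on KO 1. Of these 15, 12 lay above all 4, against 21.7% of all genes. On KO 2 the medians of these groups were 0.48 and 0.81. The 6 members with both words had a median of 0.32 on KO 1, with 4 above all 4 arrays and 1 below. The 5 with neither word had a median of 0.27, with 3 above and 1 below. The words go along with the division into replication and mitotic genes, so the values do not separate the one from the other.

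Other genes of the same pathways, which are not on the list of 45, gave a similar division. Of 27 other mitotic genes tested in colon, such as kinetochore, condensin and kinesin genes, 24 were above 0 on KO 1 (median 0.26) and 27 on KO 2 (median 0.88). Of 30 other replication genes, such as origin, polymerase and clamp loader genes, 12 were above 0 on KO 1 (median -0.07) and 28 on KO 2 (median 0.43). KO 1 lay below all 4 WT and HET arrays for 9 of the 30 and for 0 of the 27, against 12.2% of all genes. It lay above all 4 for 6 of the 30 and 15 of the 27, against 21.7% of all genes. The 6 of 30 were near the share of all genes. For KO against WT none of these genes passed the adjusted threshold. The other mitotic genes with the largest differences were Kif4, a chromosome-bound kinesin, at 0.83 as a lower bound, since its WT mean lay below 6.53, Cenpf at 0.89 (SE 0.26) and Pttg1 (securin) at 0.86 (SE 0.19). The other replication genes were Dbf4, the activator of the origin-firing kinase, at 0.83 (SE 0.33), Prim2 at 0.82 (SE 0.63) and Asf1b at 0.80 (SE 0.38). The adjusted p of these 6 genes ran from 0.320 to 0.610 in limma.

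Regulators upstream of both waves were read as well. Of 9 genes of the E2F, retinoblastoma and MuvB families, 5 were above 0 for colon KO minus WT (median 0.22), with Lin9, a MuvB subunit, at 0.39 as a lower bound for the same reason, E2f8 at 0.64 (SE 0.35) and Rbl1 at 0.29 (SE 0.19). Of 8 cyclins, kinases and inducers of the phase before replication, 7 were above 0 (median 0.14), led by Ccnh at 0.51 (SE 0.14), with Myc at 0.25 and Ccnd1 at 0.21. Of 6 inhibitors of cyclin-dependent kinases, 2 were above 0 (median -0.02), with Cdkn2b at -0.90 (SE 0.45), Cdkn1c at 0.36 and Cdkn2d at 0.22. No gene of these lists passed the adjusted threshold.

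Markers of other cell types also differed between the colon arrays. On KO 2 all 11 genes of B and plasma cells lay above the 4 WT and HET arrays, with a list mean of 7.80 against 5.99 to 6.91, and all 12 of exocrine pancreas, with 7.85 against 5.66 to 6.08 on the other 5 arrays. Of these, 4 and 5 genes stayed below 6.53 on every colon array. All 5 adipose genes lay below the WT and HET arrays on both KO arrays, with a list mean of 10.09 on KO 1 and 7.90 on KO 2 against 10.65 to 10.97. The 8 goblet cell genes averaged 12.32 on KO 1 and 13.43 on KO 2, against 12.17 on colon WT 2 and 13.19 to 13.55 on WT 1, HET 1 and HET 2. On KO 1 all 8 were below the WT and HET mean (median -0.69) and 5 were below all 4 arrays. Of all genes tested in colon, 12.2% lay below the 4 arrays on KO 1 and 19.8% on KO 2. On KO 2, 26.2% lay above them. In whole tissue a larger share of dividing cells and more RNA per cell cannot be told apart, and the part of these other cells in the KO 1 and KO 2 values was not tested.

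On KO 1 the B and plasma cell mean was 6.56, against 5.99, 6.41 and 5.99 on WT 1, HET 1 and HET 2 and 6.91 on WT 2. The 5 of these genes that were tested were all above the WT and HET mean on KO 1, with a median of 0.45, and on KO 2, with a median of 1.88. The pancreas mean on KO 1 was 5.69, inside the range of the WT and HET arrays. The 4 germinal centre genes averaged 6.72 on KO 1 and 6.71 on KO 2 against 6.22 to 6.64, with 2 of the 4 below 6.53 on every colon array. The 11 genes of stem cells and Wnt targets averaged 7.29 and 7.30 on the KO arrays, inside the range of 7.23 to 7.54 on the others, and the 7 general epithelial genes averaged 12.99 and 13.17 against 13.02 to 13.30.

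**Figure D4:**
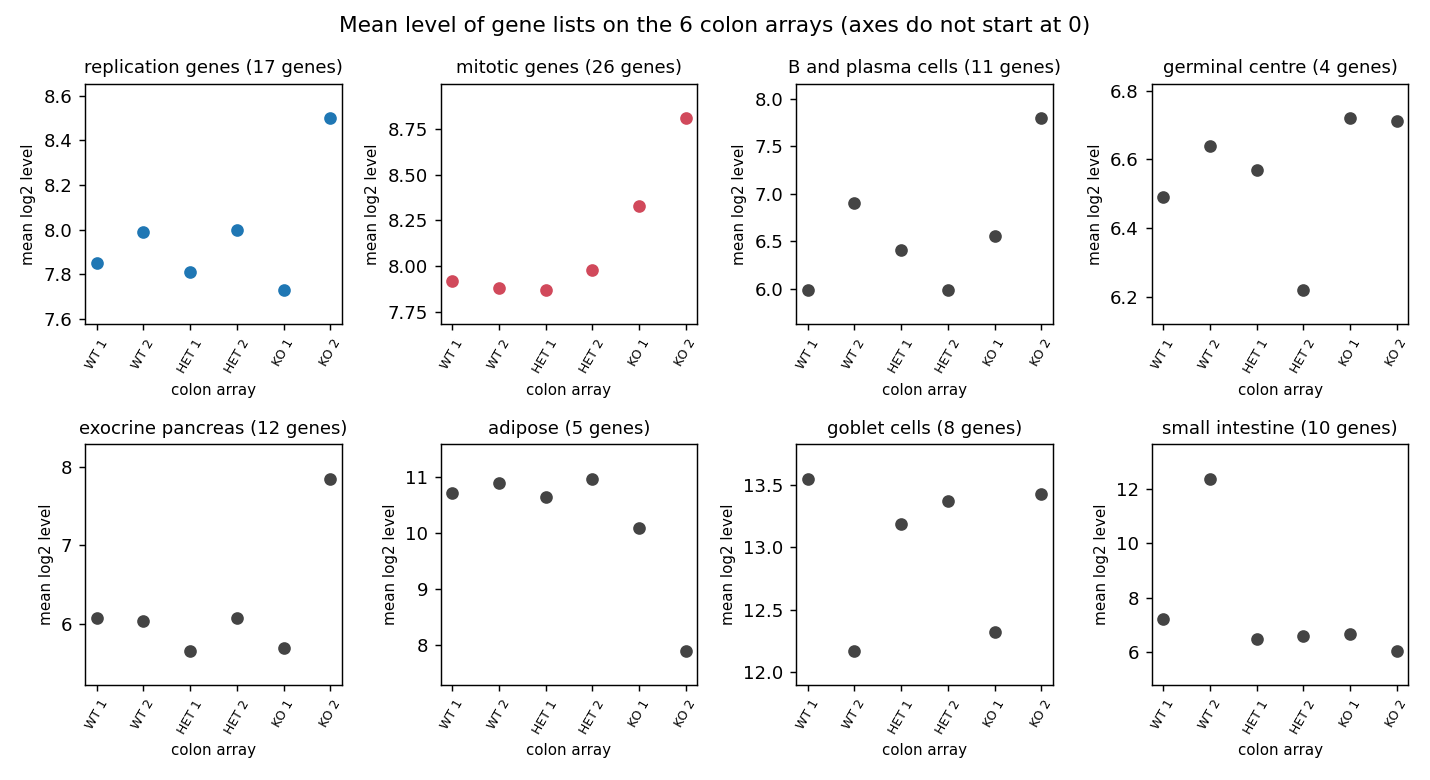
Mean log2 level of the 17 replication genes, the 26 mitotic genes and 6 lists of cell type markers on the 6 colon arrays. The mitotic mean is 8.33 on KO 1 and 8.81 on KO 2 against 7.87 to 7.98 on the other arrays, and the replication mean is 7.73 on KO 1 and 8.50 on KO 2, with the other 4 arrays in between.

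In stomach no member passed the threshold between any genotypes. For KO against WT 0 of 39 passed the adjusted threshold in limma (0.0127% of all genes), and 3 had an unadjusted p under 0.05, against 3.68% of all genes. Chek1 was higher by at least 0.62, with 5.78 and 6.43 in WT, 6.78 and 6.71 in HET, and 6.95 and 7.35 in KO. Aurka read 6.40 and 6.65, 6.94 and 7.37, and 7.20 and 7.07, so that both HET and KO arrays were above WT. Ect2 read 7.75 and 7.96, 8.26 and 7.68, and 8.20 and 8.62. The adjusted p of these 3 genes was 0.999. The median KO minus WT difference was 0.26 over 24 mitotic genes, 16 above 0, and -0.01 over 15 replication genes, 7 above 0, against 0.01 over all genes, 52% of them above 0. Markers of other cell types differed between the same arrays. The 9 squamous genes of the forestomach averaged 5.69 and 5.80 on the KO arrays against 6.79 to 9.29 on the WT and HET arrays, with 7 of 7 tested lower in KO than in WT (median -3.89). Of 5 tested B and plasma cell genes 4 were lower (median -1.51), and of 5 adipose genes 5 were lower (median -0.78). Their part in the stomach values was not tested.

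For stomach HET against WT 0 of 39 passed (0% of all genes in limma), with Aurka at an unadjusted p under 0.05 and at least 0.62 higher, against 2.27% of all genes. For KO against HET 0 of 39 passed (0.0127% of all genes), with Plk1 at an unadjusted p under 0.05 and at least 0.50 higher, against 1.92%. E2f1 was not tested in stomach, where it read 4.13 to 4.19 on the WT and HET arrays and 5.70 and 5.55 on the KO arrays, all below 6.53. The submitters' notes name RMA for both stomach KO arrays and MAS5 for the other stomach arrays. If the notes hold, genotype and processing cannot be told apart there. The deposited values of both stomach KO arrays were on the same linear scale as the rest, with a trimmed mean of 500.08. Whether the methods truly differed was not tested.

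Singly, stomach KO 1 lay above its 4 WT and HET arrays for 15 of 39 members (18.8% of all genes) and below for 3 (15.5%), and KO 2 for 9 (28.4%) and 11 (24.3%). Of the 11, 7 were replication genes, among them Rrm1, which read 8.64 to 8.77 on the WT and HET arrays, 8.66 on KO 1 and 8.44 on KO 2, and Rrm2, at 7.28 to 7.56, 7.55 and 6.96. KO 2 exceeded KO 1 for 14 of 39 members, against 51.8% of all genes, the other way round from colon. Both stomach KO arrays were above the 4 for 5 of 39 members (Top2a, Bub1, Cdc20, Cdca3 and Chek1), against 8.32% of all genes.

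Whether the KO minus WT difference was larger in colon than in stomach was tested as an interaction. None of 40 members passed the adjusted threshold in limma (0.0238% of all genes). An unadjusted p under 0.05 was reached by 4, against 4.63% of all genes: Cenpa at 1.06 (SE 0.27), Kif11 at 0.92 (SE 0.31), Ttk at 0.96 (SE 0.36) and Ccnb2 at 0.90 (SE 0.34), each with an adjusted p of 0.888. The median was 0.52 over the mitotic genes, 22 of 25 above 0, and 0.11 over the replication genes, 10 of 15 above 0, against 0.05 over all genes, 54.9% of them above 0. Without colon KO 2 the medians were 0.15 and -0.26.

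Between the tissues, averaged over the genotypes, most mitotic genes were higher in colon and most replication genes did not differ past the threshold. Of 40 members tested, 24 passed the adjusted threshold in limma, against 48.8% of all 8393 genes. There were 21 higher in colon, against 21.4% of all genes, and 3 lower, against 27.3%. The mitotic genes gave 19 higher and 1 lower of 25, and the replication genes 2 higher and 2 lower of 15. The median difference was 0.57 over the mitotic genes and 0.23 over the replication genes, with 24 of 25 and 11 of 15 above 0, against -0.05 over all genes, 45.9% of them above 0.

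Mad2l1 was higher in colon by 0.93 (SE 0.11, adjusted p = 0.000109 in limma), with 8.66 to 8.98 over the stomach arrays and 9.49 to 10.30 over the colon arrays. Cdk1 was higher by 0.88 (SE 0.13, adjusted p = 0.000446 in limma), with 8.52 to 8.80 in stomach and 9.29 to 10.31 in colon. In neither gene did the tissues overlap on any array. Cdc20, Cdca3, Aurka, Mki67, Top2a and Birc5 were higher in colon by 0.72, 0.75, 0.79, 0.89, 1.03 and 0.73, and Nusap1, Ccna2, Ccnb2 and Plk1 by 0.67, 0.81, 0.55 and 0.56. Aurkb was higher by at least 0.22, since its stomach mean of 5.71 lay below 6.53. Ube2c, Ttk, Ect2 and Kif11 were higher by 0.47, 0.47, 0.41 and 0.36, and Kif20a by at least 0.45. Hmmr was higher by 0.49 in the probe set used, while 2 of its other probe sets gave -0.07. Foxm1, the activator of mitotic genes, read 6.40 to 7.16 in stomach and 6.10 to 7.29 in colon, a difference of 0.05 (SE 0.21) that did not pass the threshold.

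Cenpa was the mitotic gene that ran the other way, lower in colon by -0.41 (SE 0.11, adjusted p = 0.0130 in limma). It read 8.14 to 8.63 on the stomach arrays, 7.52 to 8.05 on the colon WT and HET arrays, and 8.55 and 8.63 on the colon KO arrays, which thus lay at the level of stomach.

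Among the replication genes, Gmnn was lower in colon by -0.97 (SE 0.10, adjusted p = 3.95e-05 in limma), with 9.86 to 10.31 in stomach and 8.95 to 9.47 in colon and no overlap. Cdc6 was lower in colon by at least 0.62 on the log2 scale against the level of 6.53, with 6.72 to 7.36 in stomach and 5.98 to 6.95 in colon. Pcna was higher in colon by 0.36 (SE 0.10), with 11.48 to 11.68 against 11.71 to 12.23 and no overlap, and Ccne2 by 0.74 (SE 0.22). The helicase subunits did not pass: Mcm2 differed by 0.01 (SE 0.13), Mcm4 by 0.43 (SE 0.18), Mcm5 by 0.41 (SE 0.18), Mcm6 by 0.23 (SE 0.27), Mcm7 by 0.31 (SE 0.14) and Mcm3 by -0.54 (SE 0.21, adjusted p = 0.0529 in limma). Nor did Tk1 at 0.00 (SE 0.14), Rrm1 at 0.05 (SE 0.15), Tyms at -0.14 (SE 0.18) or Rrm2 at 0.48 (SE 0.22).

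**Figure D5:**
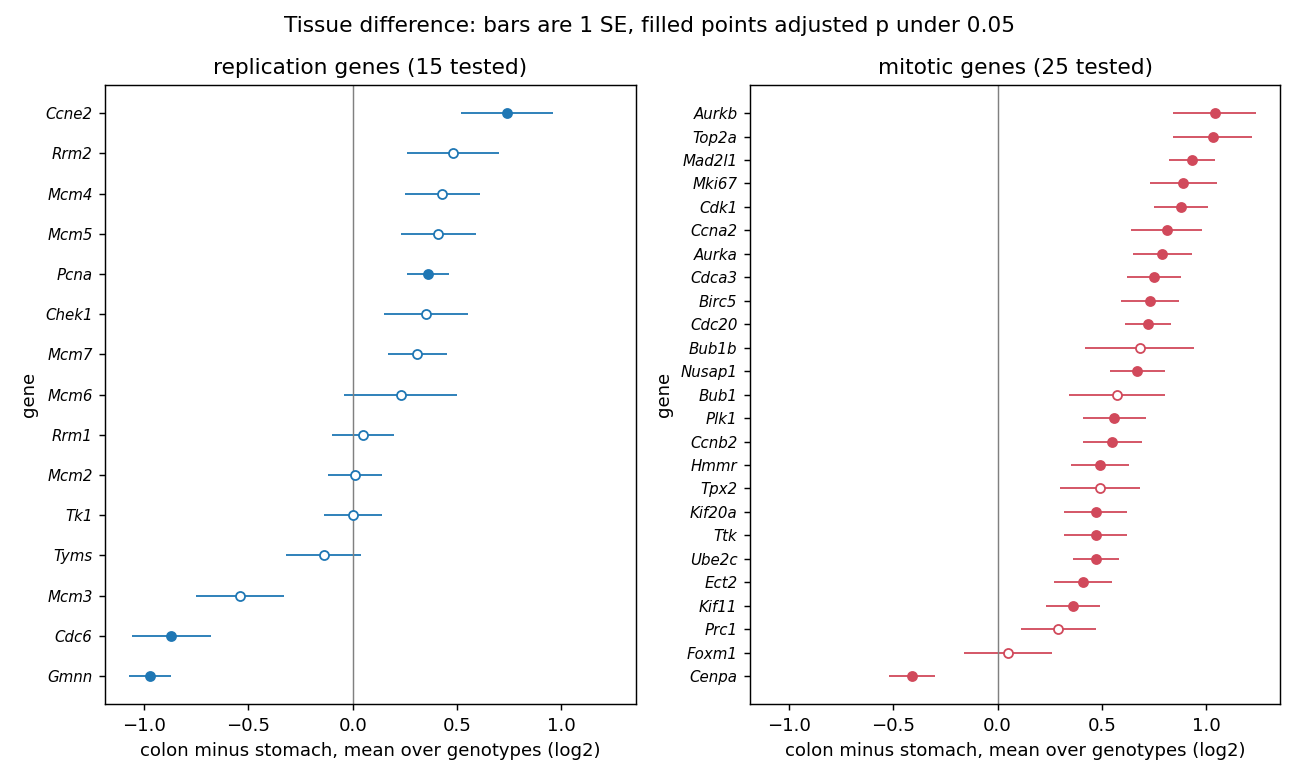
Difference between colon and stomach (horizontal axis, log2, mean over the genotypes) of each of the 40 members tested across tissues, with bars of 1 SE; filled points passed the adjusted threshold of 0.05. Of the mitotic genes 19 are filled to the right of 0 and Cenpa to the left, and of the replication genes Pcna and Ccne2 are filled to the right and Gmnn and Cdc6 to the left.

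The median difference of the mitotic genes between the tissues was 0.50 in WT, 0.51 in HET and 0.88 in KO, and that of the replication genes 0.13, 0.04 and 0.08. Leaving out colon KO 2 gave medians of 0.56 (mitotic) and -0.02 (replication), against -0.06 over all genes. Leaving out colon WT 2 gave 0.60 and 0.14, and leaving out both gave 0.55 and 0.08, against -0.05 over all genes in each.

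Past the adjusted threshold in limma, 21.4% of all genes were higher in colon and 27.3% lower. Of the other pathway genes, 14 of 27 other mitotic genes were higher in colon and none lower, with Cks2, a partner of Cdk1, at 0.94. Of 31 other replication genes 10 were higher, among them the clamp loader Rfc2 at 0.95, Uhrf1 at 0.93 and the licensing factor Cdt1 at 0.91, and Rpa1 was lower at -0.33. Of the E2F and retinoblastoma families Rbl1 was higher at 1.37, E2f5 at 1.07 and Rb1 at 0.61, and Rbl2 was lower at -0.50. Cyclin D1 (Ccnd1) was higher in colon at 0.63 and cyclin D2 (Ccnd2) lower at -0.48, while Cdk2, Cdk4 and Ccnh were lower at -0.81, -0.38 and -0.50. Of the inhibitors Cdkn1b was higher at 0.77 and Cdkn2d at 0.51, and Cdkn1c was lower at -0.88.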

How the data were processed

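RNA of 12 samples was hybridised to Affymetrix mouse expression arrays, per the labels' protocols. The authors deposited a linear intensity per probe set, with a trimmed mean of 500.07 to 500.09 on every array, and per the submitters' processing notes 9 arrays went through MAS5 and 3 through RMA, namely colon WT 1 and both stomach KO arrays; versions are not given in the sources used here. Of 22716 probe sets, 90 controls were left out, and genes were named from the platform annotation with current RefSeq symbols. Values were taken as log2(intensity + 16), quantile normalized, reduced to 1 probe set per gene and filtered at the 40th percentile (6.53, an intensity of 76.5) on at least 2 of the 6 arrays of a tissue. The 6 groups each had a mean in a limma fit (3.58.1, R 4.3.3) with an intensity trend and 6 residual degrees of freedom, and Benjamini-Hochberg adjustment ran over all genes tested. An "at least" difference is taken against 6.53. The members, gene lists and motif words were chosen with earlier results of these data known. All members with a probe set could be named; of other pathway genes, those past the threshold (the largest where many) or up to 3 per list with the largest difference for colon KO against WT. The steps were tested on simulated data for colon KO against WT. There, 54% of 100 genes with a log2 change of 1 passed the threshold, and 87% of 100 with a change of 2. Of 149 calls, 8 were false. Alternatives were other scalings, offsets, filters, probe set rules, a block and left-out arrays. The number of arrays limits the precision.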

Additional observations from a re-analysis of the deposited data

Results flagged for a closer look

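In 3 mitotic genes every KO array lay above both WT arrays in colon and below both WT arrays in stomach. Of all genes tested in colon 20.4% met the first condition, and of those tested in stomach 16.7% met the second. The share of all genes that met both was not counted. The KO minus WT difference in colon exceeded that in stomach by 0.67 for Cdk1, by 0.96 for Ttk and by 0.79 for Kif20a. The difference was tested as an interaction in limma, and none of the 3 passed (adjusted p = 0.888 in each). In stomach Cdk1 read 8.78 and 8.75 in WT and 8.72 and 8.52 in KO, Ttk read 6.78 and 6.99 and then 6.71 and 6.75, and Kif20a read 6.69 and 6.78 and then 6.61 and 6.28.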

How the results depend on the processing

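Leaving out colon WT 1 gave 1 member past the threshold for colon KO against WT, Cenpa (adjusted p = 0.0171 in limma); colon WT 2 was then the only WT array of colon, and 977 of all genes (12.5%) were called. No other left-out array gave such a member. With 1 array left out, the colon minus stomach median ran from 0.53 to 0.71 (mitotic) and from -0.02 to 0.42 (replication). The other alternatives gave 20 to 26 members past the threshold for colon against stomach, of 35 to 43 tested, against 35.7% to 51.5% of all genes. With the replicate number as a block the count was 25 (46.4% of all genes). It was 0 for KO against WT in colon (0.0379%). Same-numbered arrays of 2 groups correlated between -0.21 and 0.18 in their deviations from the group means. Such a correlation across tissues cannot decide whether same-numbered arrays share an animal. Xist was low on KO 2 of both tissues, at 7.48 in stomach and 5.70 in colon. Of colon KO 2, the median over the mitotic genes was 0.75 with an offset of 64 and 0.81 with the mean of all probe sets. Leaving out colon WT 2 and KO 2 together, chosen after seeing the data, gave 0 members for colon KO against WT and medians of 0.37 (mitotic) and -0.13 (replication). None of the 74 results of single genes with an unadjusted p under 0.05 changed sign. The replication median did without colon KO 2, for colon KO against WT (0.13 to -0.14), KO against HET (0.19 to -0.21), the interaction (0.11 to -0.26) and colon against stomach (0.23 to -0.02), and medians near 0 in the stomach and HET comparisons changed sign under some alternatives. Kif11 lost its tissue call in 13 alternatives, Ect2 in 11, Ccne2 in 7, and Kif20a and Ttk in 6 each. With 2 arrays per group, a missed threshold does not show that levels were equal.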
